A study of Mus musculus with 12 samples.

Results

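The antiviral interferon-stimulated genes are a module of genes by which a cell senses viral nucleic acid, slows the copying of a virus and blocks its release, and they are read here in tumors in which another interferon, IFNG, was placed under the control of blue light. Members were taken by name from a list of 35 genes. Of these, 33 had a row among the 32288 rows of the count tables, and Mx1 and Mx2 were not analysed here. All 33 passed the filter on low counts. They were sorted by role into sensors, the ISG15 system and regulators, the IFIT family, the OAS family, other effectors and other induced genes.

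Each of the 12 RNA-seq libraries came from 1 subcutaneous tumor of 1 DBA/2 mouse that was 9 to 10 weeks old at implantation. P815 is a mouse mastocytoma line that grows in the syngeneic DBA/2 strain. P815-IFNG cells carried the light-sensing activator GAVPO under the EF-1α promoter, a UAS cassette with murine Ifng, Cxcl10 and the luciferase hGluc, and mRuby with firefly luciferase, whereas P815-M cells carried mRuby and firefly luciferase alone. Each line was 1 single-cell clone, so the cytokine module and the clone cannot be told apart in a comparison of the lines. From 7 days after implantation, mice of the light group received blue light in cycles of 12 h light and 12 h dark for 6 days by the labels, and the dark group was kept without it. With 3 mice in each, the 4 groups were P815-IFNG light, P815-IFNG dark, P815-M light and P815-M dark. The mice kept their own immune cells, and a tumor sample holds both P815 cells and cells of the host.

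In the type I pathway, interferons alpha and beta bind the receptor of IFNAR1 and IFNAR2, the kinases JAK1 and TYK2 become active, and the complex ISGF3, which holds IRF9, forms and enters the nucleus. ISGF3 binds the interferon-stimulated response element (ISRE), a repeat of GAAA, in front of antiviral genes. IFNG uses another receptor and acts mainly through the gamma-activated site (GAS), and many antiviral genes respond to both kinds of interferon.

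RefSeq promoter windows of GRCm38.p6, from 250 bases before to 50 bases after the gene start, were given for 28 of the 33 members. An ISRE core, written as GAAANNGAAA or on the other strand as TTTCNNTTTC, was found in 14 of the 28 members (50%) and in 3.99% of all 27025 genes with a window. A GAS core, TTCNNNGAA, which reads the same on both strands, was found in 7 members (25%) and in 9.55% of all genes with a window. A gene with more than 1 start counted once. A member of each role is shown where the role has a match, with Rsad2 as a further effector. Each stretch runs from 150 bases before the start to 20 bases into the gene, 5′ to 3′ on the strand of the gene, with the ISRE cores in capitals, and overlapping cores run together. Ddx58 (a sensor) lies at chr4:40239806-40239975 on the minus strand, Isg15 at chr4:156200799-156200968 on the minus strand, Ifit1 at chr19:34640739-34640908 on the plus strand, Oas3 at chr5:120777640-120777809 on the minus strand, Bst2 at chr8:71537453-71537622 on the minus strand and Rsad2 at chr12:26456433-26456602 on the minus strand.
Ddx58: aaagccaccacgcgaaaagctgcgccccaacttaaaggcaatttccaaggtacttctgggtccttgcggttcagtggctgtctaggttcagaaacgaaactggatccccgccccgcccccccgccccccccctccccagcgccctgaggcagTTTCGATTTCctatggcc
Isg15: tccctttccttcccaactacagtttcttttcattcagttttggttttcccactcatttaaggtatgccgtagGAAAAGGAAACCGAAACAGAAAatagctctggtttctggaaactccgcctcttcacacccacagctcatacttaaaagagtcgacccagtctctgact
Ifit1: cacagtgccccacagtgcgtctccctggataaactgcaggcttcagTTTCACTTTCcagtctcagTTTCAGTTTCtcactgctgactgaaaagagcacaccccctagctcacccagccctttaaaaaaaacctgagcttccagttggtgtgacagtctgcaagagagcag
Oas3: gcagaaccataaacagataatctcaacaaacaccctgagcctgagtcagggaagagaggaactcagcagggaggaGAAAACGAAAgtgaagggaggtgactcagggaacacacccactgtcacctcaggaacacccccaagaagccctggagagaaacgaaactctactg
Bst2: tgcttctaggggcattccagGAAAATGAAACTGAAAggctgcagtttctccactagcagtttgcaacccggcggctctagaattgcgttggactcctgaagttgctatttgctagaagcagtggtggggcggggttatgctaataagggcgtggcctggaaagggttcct
Rsad2: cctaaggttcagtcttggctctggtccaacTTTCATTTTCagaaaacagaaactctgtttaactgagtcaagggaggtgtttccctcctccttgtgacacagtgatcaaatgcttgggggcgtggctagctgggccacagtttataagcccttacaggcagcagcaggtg

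Isg15 had 3 overlapping cores, Bst2 had 2 overlapping cores, and Ifit1 had 2 that stood apart. In Ddx58 the core lay just after the start. Of the 7 members among the other induced genes, 5 had a window and none of these held an ISRE core; Dhx58, Usp18, Oas2, Rtp4 and Tor3a had no window. A match is a description of the letters, and no binding was measured.

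**Figure D1:**
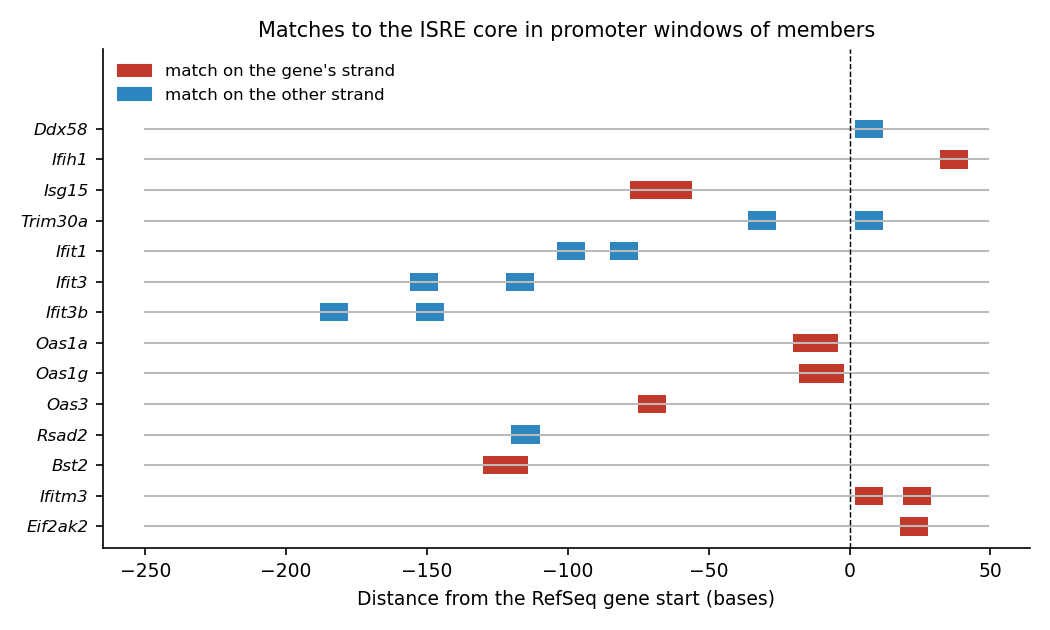
Matches to the ISRE core (bars of 10 bases) in the promoter windows of the 14 members that held one, by distance from the RefSeq gene start in bases; grey lines show the window and colours the strand. Cores of Isg15, Bst2, Oas1a and Oas1g overlap, while those of Ifih1, Ddx58, Ifitm3 and Eif2ak2 lie after the start, and the cores of Trim30a come from windows at 2 different starts, drawn on 1 line.

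The libraries had unequal totals. These are counts assigned to genes, and reads sequenced were not counted here, so deep, shallower and depth class refer to the totals alone. In 10 of them the total was between 2211234 and 2946792 counts, and 2 deep libraries, replicate 3 of P815-IFNG light and replicate 3 of P815-IFNG dark, held 41473500 and 42338096. Levels are given as CPM, the usual depth-scaled count of a gene, with TMM scaling after the mitochondrial rows were removed. A floor of 3 counts was worth between 0.931 and 1.56 CPM in the 10 libraries, and 0.0694 and 0.0670 CPM in the deep ones, for counting error only. The 2 kinds also differed in the makeup of the counts, with mt-Nd6 at between 29.0% and 47.9% of the counts of mitochondrial coding genes in the 10 libraries and at 3.56% and 3.85% in the deep ones. Values of the deep libraries are therefore set apart: wherever 3 values of a P815-IFNG group are given, the third is the deep library. Of 12 mast cell markers, Fcer1a had no count in 10 libraries and Ms4a2 in 7, while the summed list reached between 2469 and 3694 CPM in the 10 libraries, 13283 in the deep light library and 10087 in the deep dark one. These are bulk samples, in which fewer cells of a type and less RNA per cell cannot be told apart.

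As a module, the members lay higher in the light than in the dark in both tumor lines, and among the 10 libraries highest in illuminated P815-IFNG tumors. The level of the module was taken as the median over the 33 members of log2 CPM with a prior count of 2. In P815-IFNG light it was 4.53, 4.07 and 3.55, and in P815-IFNG dark 3.59, 3.45 and 2.49. In P815-M light it was 3.66, 3.61 and 3.51, and in P815-M dark 2.93, 2.69 and 3.15. Light libraries lay above dark ones in P815-M, and in P815-IFNG they did so among libraries of the same depth, whereas the deep light library fell just below the first dark one. The group means were 4.05 ± 0.49 (SD, n = 3), 3.18 ± 0.60, 3.59 ± 0.08 and 2.92 ± 0.23 in that order. Between the deep libraries the level differed by 1.06, light over dark. The first P815-IFNG light library was the highest of the 10 libraries for 20 members, and the second P815-M dark library the lowest for 13. That P815-IFNG light library also stood apart in Ifng and Cxcl10. Ifng had 14.9 CPM (37 counts) there against at most 2.08 CPM in every other library, and Cxcl10 had 39.0 CPM against at most 8.31. Both are the rows of the mouse genes. The inserted cassettes have rows of their own, which are not given here.

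**Figure D2:**
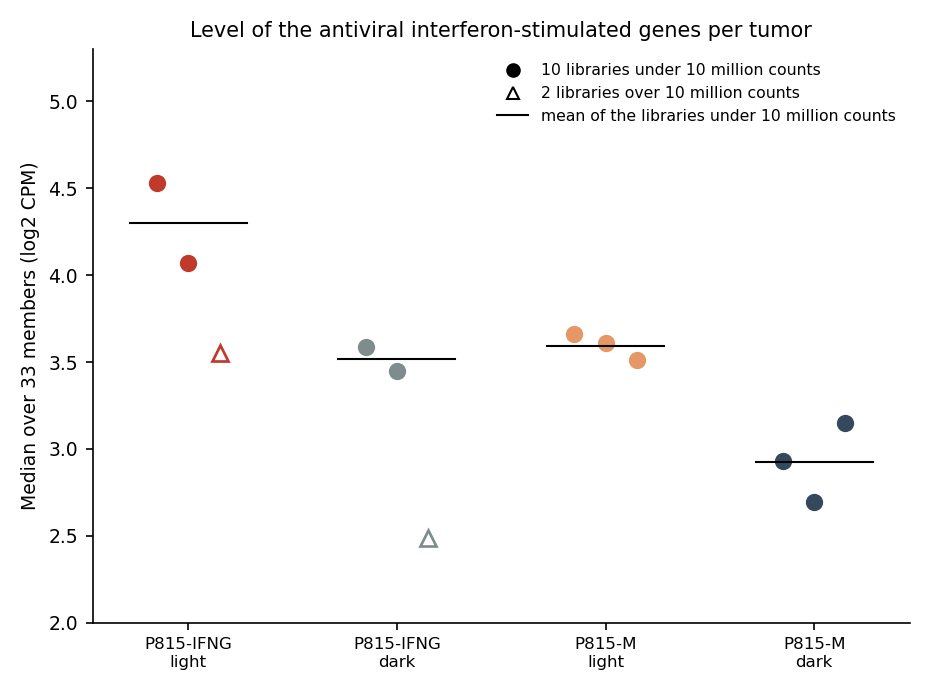
Level of the module in each tumor, as the median over 33 members of log2 CPM, by group; circles are the 10 shallower libraries, triangles the 2 deep libraries and bars the mean of the circles. The P815-IFNG light circles (4.53 and 4.07) lie above all others, and the P815-M dark circles (2.69 to 3.15) below all other circles.

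The summed counts of the members did not keep that order in every library. They summed to between 968 counts (second P815-M dark library) and 3204 counts (first P815-IFNG light library) among the 10 libraries, which was between 0.0430% and 0.128% of all counts. The second P815-IFNG light library held 1749 member counts, fewer than the 2483 and 2142 of the shallower P815-IFNG dark ones. In the deep libraries they summed to 27587 counts in light and 18198 in dark. The share of mt-Nd6 lay higher in light in both lines: it was 40.5% and 43.6% in the shallower P815-IFNG light libraries against 34.4% and 32.2% in dark, and between 41.5% and 47.9% in P815-M light against between 29.0% and 36.7% in P815-M dark. Between the deep libraries it was not higher in light. Its part in the levels of the members was not tested. The summed CPM of 12 macrophage and monocyte markers lay higher in light in P815-M, at 2007, 1897 and 1757 CPM in light and 1126, 793 and 1124 in dark, and all 12 markers had a positive log2 fold change there. The summed mast cell markers lay lower in P815-M light (2521 to 2689 CPM) than in P815-M dark (2738 to 3694). In P815-IFNG the sums were 2194, 1457 and 894 CPM in light and 2022, 1904 and 746 in dark, and 5 of the 12 markers were higher in light in the 10 libraries. The part of these cells in the levels of the members was likewise untested.

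Whether blue light changed the antiviral genes of engineered tumors was asked by comparing P815-IFNG light with P815-IFNG dark. Of 33 members, 31 had a higher fitted level in light (48.3% of all 18804 genes tested did), with a median log2 fold change of 0.76 against -0.02 over all genes. A gene counted as called where its adjusted p did not exceed 0.05 and its log2 fold change reached 1 in either direction. By edgeR's quasi-likelihood test, adjusted after Benjamini and Hochberg, no member was called (0% of all genes were), and none was by DESeq2 (0.0213% of all genes). After ComBat-seq, which rescales the counts of the 2 depth classes, 4 members were called, Oas3, Oasl2, Rsad2 and Rtp4 (0.841% of all genes). At an unadjusted p under 0.05, 3 members were higher, Ifit1, Herc6 and Oas3, against 0.755% of all genes, and 0 were lower (1.42% of all genes). In the 10 libraries alone 29 were higher (46.9% of all genes) with a median of 0.66, and 7 had an unadjusted p under 0.05 in that edgeR fit (5.59% of all genes): Oas3, Rtp4, Irf7, Ifit2, Oasl2, Rsad2 and Herc6. None of them was called there (0.0059% of all genes). Between the deep libraries 32 of 33 were higher in light, with a median log2 ratio of 0.84, and 13 had a log2 ratio of 1 or more, against 45.3% and 5.3% of all genes; a single pair has no replicate check. The median fell to 0.40 without the first P815-IFNG light library and stood between 0.40 and 0.99 over all libraries left out in turn.

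The same comparison in P815-M tumors, which lack the light-controlled module, gave the background of illumination. In these tumors 28 of 33 members were higher in light (50.7% of all genes were), with a median log2 fold change of 0.44 against 0.01 over all genes. None was called by edgeR (0% of all genes) or DESeq2 (0.00532%), and 2 had an unadjusted p under 0.05 in the edgeR test, Oasl2 and Ifitm3, where 2.03% of all genes were higher so, and 0 were lower (0.681%). In the 10 libraries, which hold all 6 of these tumors, 7 did (8.22% of all genes): Oasl2, Ifitm3, Lgals3bp, Rtp4, Oas3, Bst2 and Ifit2. No member was called in the 10 libraries (0.927% of all genes). Oasl2 and Ifitm3 were called with depth class as a batch term (1.03% of all genes) or when the 6 libraries were fitted alone (1.55%), and Ifitm3 was called after ComBat-seq (1.38%). The median was 0.68 without the third P815-M dark library. When the light effects of the lines were set against each other in 1 fit, 24 members had a larger effect in P815-IFNG (49.3% of all genes did), by a median of 0.26 against -0.01 over all genes, and 0 were called (0% of all genes) and 0 had an unadjusted p under 0.05 (0.367% of all genes with a larger and 1.3% with a smaller effect in P815-IFNG). This median was 0.06 without the first P815-IFNG light library, 0.49 without the third, 0.49 without the first P815-IFNG dark library, 0.06 without the third, and 0.04 without the third P815-M dark library. In the 10 libraries 0 were called (0.0118% of all genes). At an unadjusted p under 0.05 in that edgeR fit, Irf7 had a larger effect in P815-IFNG, by 0.76 ± 0.29 (SE, adjusted p = 0.580; 2.46% of all genes), and Lgals3bp a smaller one, by -0.99 ± 0.37 (SE, adjusted p = 0.571; 5.24% of all genes).

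**Figure D3:**
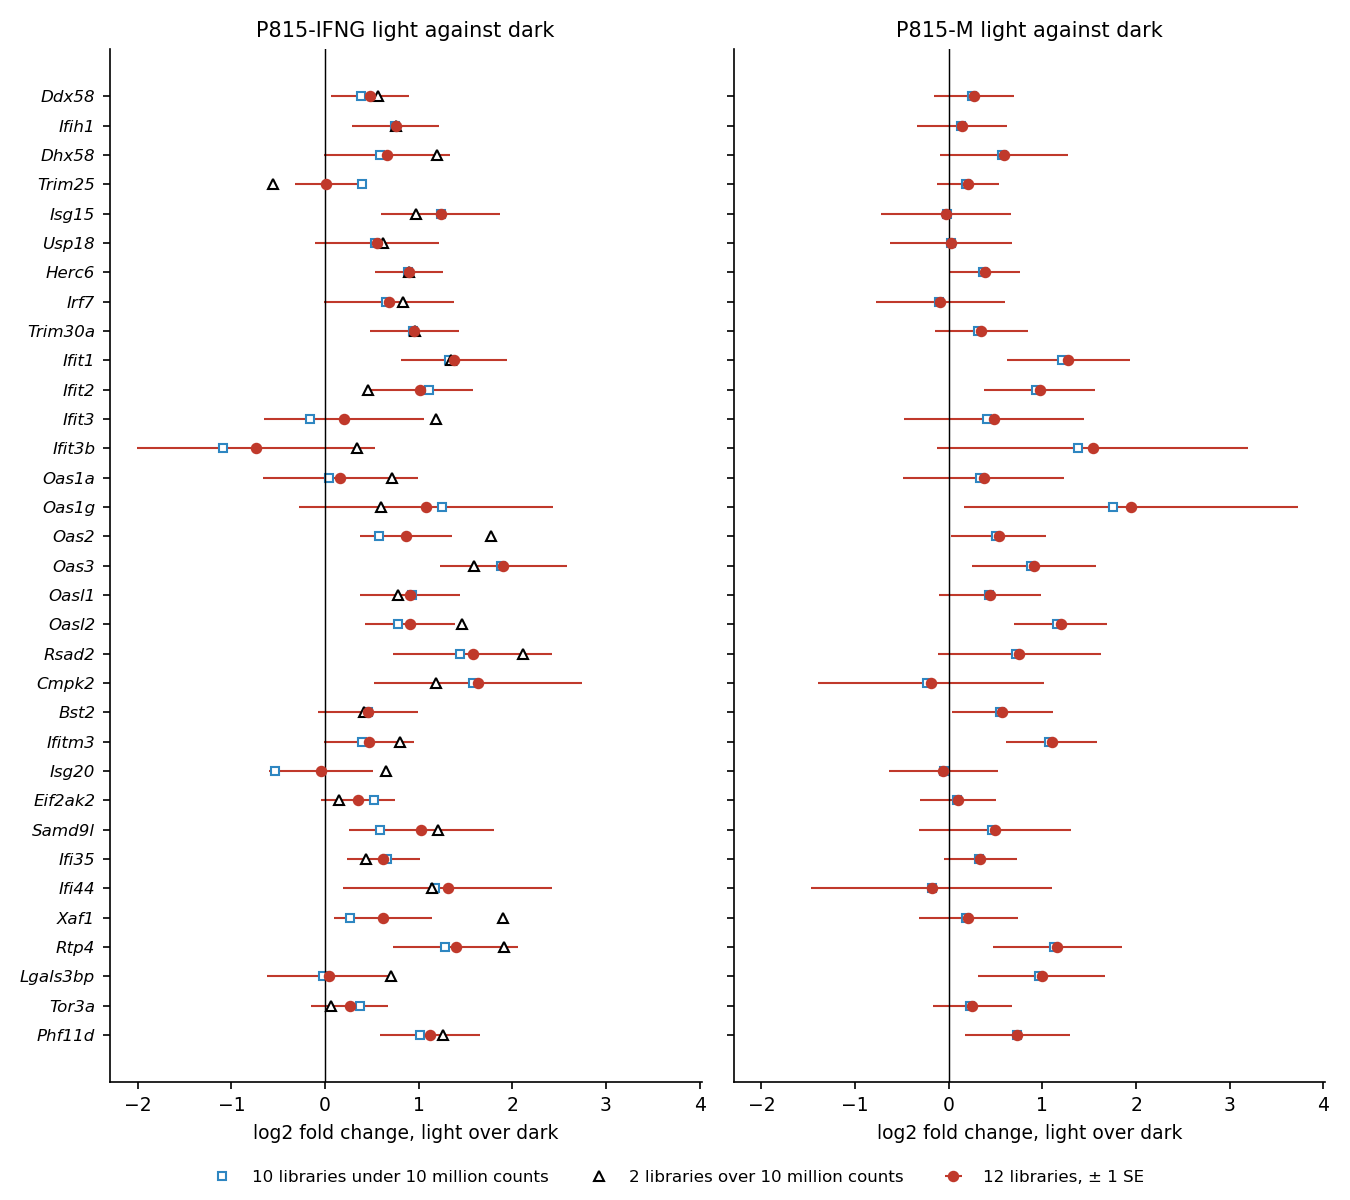
Log2 fold change of each member between light and dark in P815-IFNG (left) and P815-M tumors (right); red points are the fit of all 12 libraries with 1 standard error, blue squares the 10 shallower libraries and triangles the pair of deep libraries. Most points lie right of 0 in both lines (31 and 28 of 33 in the fit of 12 libraries), with error bars that often reach 0.

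Taken library by library, 5 members had every P815-IFNG light library above every P815-IFNG dark one, Ifih1, Herc6, Trim30a, Ifit1 and Oas2 (0.994% of all genes did), and 0 had the reverse (2.75%). In the 10 libraries 20 members did, with 2 libraries on each side (18.2% of all genes), and Ifit3b did so in the lower direction (21% of all genes). In P815-M 9 did, Dhx58, Ifit1, Ifit2, Oas3, Oasl2, Bst2, Ifitm3, Rtp4 and Lgals3bp (10.1% of all genes), and 0 members lay lower (8.06%). Light lay above dark in both lines, within each depth class, for Dhx58, Ifit1, Ifit2, Oas3, Oasl2 and Rtp4, 6 of 33 members against 1.66% of all genes, and for 0 members in the lower direction (1.96%). For 5 of the 6, all but Oas3, the 10 libraries stood in 1 order, P815-IFNG light above P815-IFNG dark and P815-M light, and both of these above P815-M dark (0.239% of all genes). These last patterns were chosen after the values were seen.

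**Figure D4:**
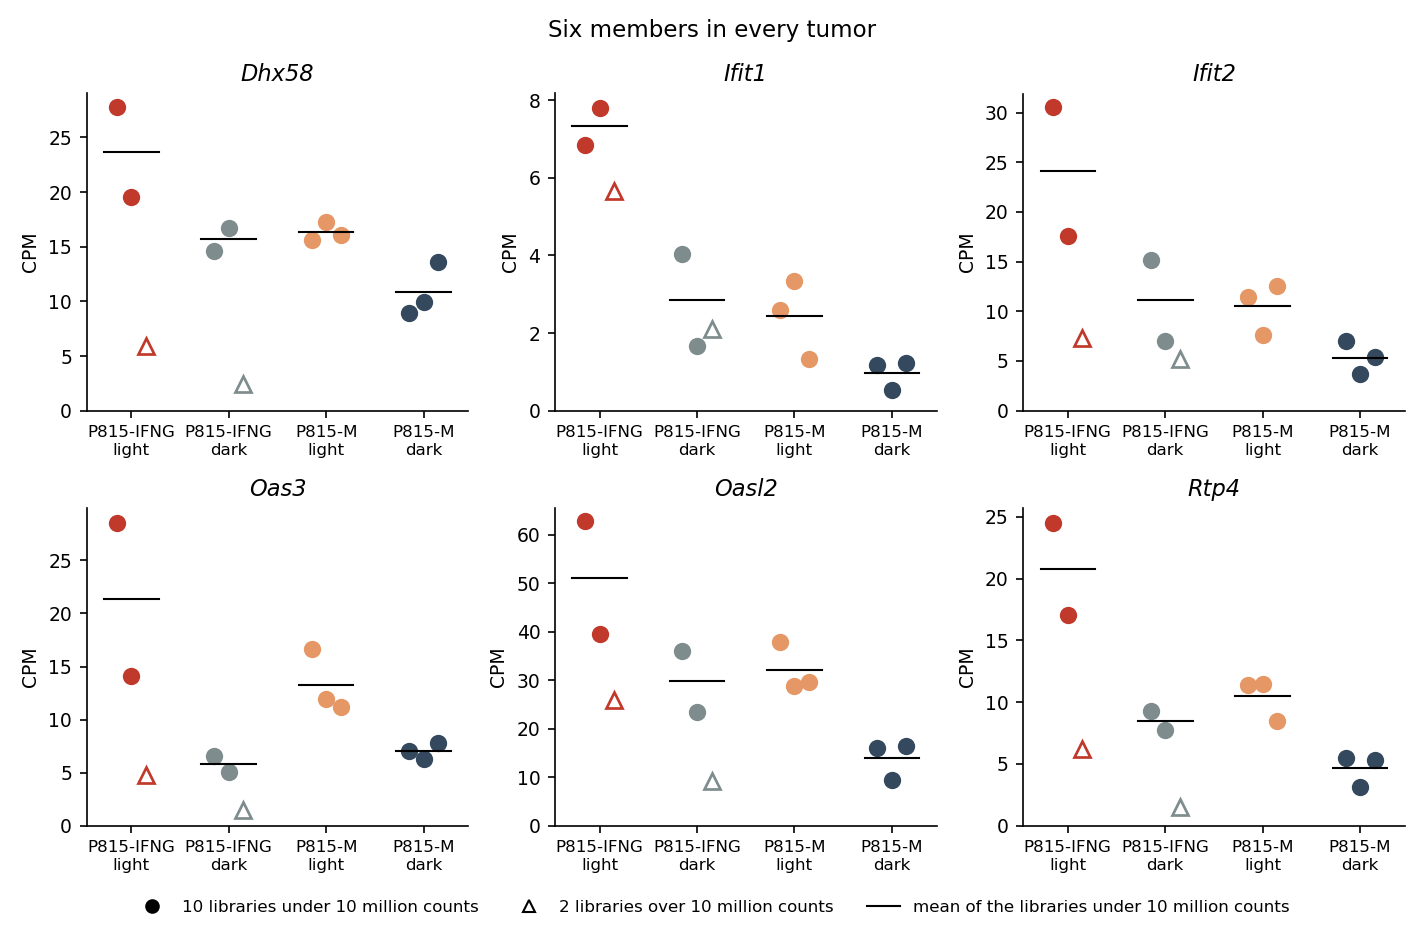
CPM of Dhx58, Ifit1, Ifit2, Oas3, Oasl2 and Rtp4 in each tumor by group; circles are the 10 shallower libraries, triangles the 2 deep libraries and bars the mean of the circles. In each panel the light circles lie above the dark circles of the same line and the light triangle above the dark one; scales differ between panels, and in all panels but that of Ifit1 both deep libraries lie below the circles of their own group.

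The sensors are helicases that bind viral RNA, with the E3 ligase TRIM25 as an activator of the first of them. Trim25 had 59.9, 45.4 and 50.8 CPM in P815-IFNG light, 27.6, 52.3 and 74.8 in P815-IFNG dark, 43.1, 41.2 and 35.3 in P815-M light and 37.5, 30.7 and 35.4 in P815-M dark. The groups of each line overlapped, with the deep dark library the highest of the 12, and Trim25 had a log2 ratio of -0.56 between the deep libraries, the only member below 0 there. Ddx58, which encodes RIG-I, had 21.3, 19.5 and 42.3 CPM in P815-IFNG light, 16.1, 15.1 and 28.5 in P815-IFNG dark, 27.0, 24.4 and 24.6 in P815-M light and 13.7, 17.2 and 32.1 in P815-M dark. Its P815-IFNG light libraries lay above the dark ones within each depth class, while the P815-M groups overlapped. Dhx58 encodes LGP2, a helicase without the signalling domains of the other sensors, and had 27.8, 19.5 and 5.90 CPM in P815-IFNG light, 14.6, 16.8 and 2.46 in P815-IFNG dark, 15.6, 17.2 and 16.1 in P815-M light and 8.98, 9.90 and 13.6 in P815-M dark. All P815-M light libraries of Dhx58 lay above the dark ones (two-sided p = 0.1 by exact permutation, which is the lowest value possible with 3 against 3), and the deep libraries lay lower than all others. Ifih1, which encodes the long-RNA sensor MDA5, was above the dark libraries in each P815-IFNG light library, at between 7.81 and 16.5 CPM against 7.14 and 7.37, with a log2 fold change of 0.76 ± 0.46 (SE, adjusted p = 1 in the edgeR test). As a group the 4 sensors had a median of 0.57 in P815-IFNG and 0.24 in P815-M, and in both lines all 4 were positive with 0 called.

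Among the regulators, Irf7 encodes the factor that amplifies interferon production and was the most abundant of the group in the 10 libraries. It had 111, 109 and 18.8 CPM in P815-IFNG light, 68.3, 70.7 and 10.4 in P815-IFNG dark, 117, 72.3 and 90.8 in P815-M light and 94.9, 111 and 92.6 in P815-M dark. In P815-IFNG the light libraries of Irf7 lay above the dark ones within each depth class, and the P815-M groups overlapped. The log2 fold change of Irf7 in P815-IFNG was 0.66 ± 0.22 (SE, adjusted p = 0.361 in the edgeR fit of the 10 libraries). Usp18 encodes the protease that removes ISG15 and holds back the type I receptor, and had 18.9, 17.1 and 4.005 CPM in P815-IFNG light, 13.3, 11.4 and 2.52 in P815-IFNG dark, 17.1, 18.2 and 21.9 in P815-M light and 12.1, 22.4 and 21.8 in P815-M dark. Its P815-M groups overlapped, and in P815-IFNG light lay above dark within each depth class. Herc6, the mouse ligase for ISG15, had 22.9, 16.1 and 22.4 CPM in P815-IFNG light, 9.93, 11.1 and 12.0 in P815-IFNG dark, 12.5, 14.8 and 8.50 in P815-M light and 6.25, 8.33 and 12.8 in P815-M dark. Every P815-IFNG light library of Herc6 lay above every dark one, with a log2 fold change of 0.90 ± 0.36 (SE, unadjusted p = 0.0289 and adjusted p = 1 in the edgeR test), between 0.78 and 1.04 with 1 library left out; 20.9% of its stretches of 100 bases also occur in another gene, so its counts are uncertain.

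Isg15 encodes the small ubiquitin-like protein that is attached to other proteins in the response, and its counts were few. It had 6.84, 7.81 and 3.06 CPM in P815-IFNG light, 3.41, 2.68 and 1.45 in P815-IFNG dark, 2.08, 1.44 and 2.68 in P815-M light and 1.56, 3.65 and 1.23 in P815-M dark, which in the 10 libraries rests on between 3 and 17 counts. The 2 shallower P815-IFNG light libraries were the highest of the 12, and the deep one lay above all P815-M light libraries but below the first P815-IFNG dark library. Its log2 fold change was 1.24 ± 0.63 (SE, adjusted p = 1 in the edgeR test) in P815-IFNG, where the groups overlapped, and in P815-M the groups overlapped at between 1.23 and 3.65 CPM. Trim30a, which holds back inflammatory signalling, had light above dark in each P815-IFNG library, at between 11.2 and 26.5 CPM against between 6.03 and 10.7, and a log2 fold change of 0.95 ± 0.47 (SE, adjusted p = 1 in the edgeR test). The 5 genes of this role had a median of 0.90 in P815-IFNG, with all 5 positive, and 0.03 in P815-M, with 3 positive; none was called in either line, and the difference of the light effects was called for 0 of them.

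The IFIT proteins bind foreign RNA ends and block translation. Ifit1 had 6.84, 7.81 and 5.65 CPM in P815-IFNG light, 4.03, 1.68 and 2.10 in P815-IFNG dark, 2.60, 3.35 and 1.34 in P815-M light and 1.17, 0.521 and 1.23 in P815-M dark. It was the only member whose light and dark libraries separated in both lines over all 12 libraries, and its P815-IFNG libraries also lay above the P815-M ones in light and in dark. The log2 fold change was 1.38 ± 0.57 (SE, unadjusted p = 0.0325, adjusted p = 1 in the edgeR test) in P815-IFNG and 1.28 ± 0.66 (SE, adjusted p = 1) in P815-M, between 1.17 and 1.84 and between 0.97 and 1.57 with 1 library left out. The P815-M dark values rest on 3, 1 and 3 counts and the third P815-M light library on 3, all at or under the floor. That light library lies above the dark ones with 3 counts through depth scaling alone. Both the separation of the P815-M groups and the size of their fold change are therefore uncertain.

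Ifit2 had 30.6, 17.6 and 7.27 CPM in P815-IFNG light, 15.2, 7.04 and 5.22 in P815-IFNG dark, 11.4, 7.66 and 12.5 in P815-M light and 7.03, 3.65 and 5.35 in P815-M dark. Light lay above dark in P815-M and, within each depth class, in P815-IFNG, and in P815-M the log2 fold change was 0.97 ± 0.59 (SE, adjusted p = 1 in the edgeR test). In P815-IFNG it was 1.01 ± 0.57 (SE), with 1.11 in the 10 libraries and 0.46 between the deep ones. Ifit3 had 5.63, 4.39 and 4.88 CPM in P815-IFNG light, 7.14, 4.02 and 2.03 in P815-IFNG dark, 4.67, 0.958 and 1.34 in P815-M light and 2.73, 0 and 2.06 in P815-M dark, and the groups overlapped in both lines. Ifit3 and Ifit3b share 31.7% and 27.4% of their stretches of 100 bases, so reads could have been split between them. Ifit3b had between 0 and 3 counts in the 10 libraries, and 16 and 11 in the deep ones. The 4 IFIT genes had medians of 0.61 in P815-IFNG and 1.12 in P815-M, with 3 and 4 positive and 0 called.

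The OAS enzymes make short adenylate chains from which RNase L takes its signal, and the OAS-like protein of Oasl1 holds back the translation of Irf7. Oasl2 had 62.7, 39.5 and 25.9 CPM in P815-IFNG light, 36.0, 23.5 and 9.24 in P815-IFNG dark, 37.9, 28.7 and 29.5 in P815-M light and 16.0, 9.38 and 16.5 in P815-M dark. Its P815-M groups did not overlap, and the log2 fold change there was 1.19 ± 0.49 (SE, unadjusted p = 0.0331 and adjusted p = 1 in the edgeR test), or 1.16 with an adjusted p of 0.0553 in the 10 libraries. In P815-IFNG it was 0.91 ± 0.48 (SE), with 0.78 in the 10 libraries and 1.47 between the deep ones. Oasl1 had 37.8, 14.6 and 11.5 CPM in P815-IFNG light, 14.3, 13.4 and 6.61 in P815-IFNG dark, 7.27, 17.7 and 21.0 in P815-M light and 11.7, 9.38 and 12.8 in P815-M dark, and the high value of the first P815-IFNG light library carried much of the fold change, which was 0.91 ± 0.53 (SE) with it and 0.16 without it.

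Oas2 had 23.3, 19.0 and 17.1 CPM in P815-IFNG light, 11.8, 16.4 and 4.84 in P815-IFNG dark, 17.1, 10.5 and 5.81 in P815-M light and 6.64, 7.81 and 8.64 in P815-M dark. Each P815-IFNG light library of Oas2 lay above each dark one, and the P815-M groups overlapped. Oas3 had 28.6, 14.2 and 4.79 CPM in P815-IFNG light, 6.52, 5.03 and 1.45 in P815-IFNG dark, 16.6, 12.0 and 11.2 in P815-M light and 7.03, 6.25 and 7.82 in P815-M dark. It gave the largest log2 fold change of the members in P815-IFNG, 1.90 ± 0.68 (SE, unadjusted p = 0.0161 and adjusted p = 1 in the edgeR test), with 1.88 in the 10 libraries (unadjusted p = 2.89e-04, adjusted p = 0.215), 1.59 between the deep libraries and between 1.11 and 2.40 with 1 library left out. In P815-M, where its groups did not overlap, it was 0.91 ± 0.67 (SE). Oas1a and Oas1g share 40.9% and 38.2% of their stretches of 100 bases and are uncertain; Oas1a had between 1.04 and 8.38 CPM in the 10 libraries with all groups overlapping, and Oas1g between 0 and 4 counts. All 6 genes of the family were positive in both lines, with medians of 0.91 and 0.72 and 0 called.

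The other effectors act at membranes and on nucleotides or translation. Ifitm3 and Bst2, which block the entry and the release of enveloped viruses, stood highest of the members per kilobase of exon, at 171 and 166 CPM per kb over the 10 libraries and at 86.3 and 49.7 over the deep ones. Bst2 had 211, 131 and 51.3 CPM in P815-IFNG light, 146, 102 and 38.4 in P815-IFNG dark, 181, 161 and 199 in P815-M light and 138, 90.6 and 135 in P815-M dark. The P815-M light libraries lay above the dark ones, and the P815-IFNG groups overlapped. Ifitm3 had 211, 106 and 74.4 CPM in P815-IFNG light, 111, 130.0 and 42.6 in P815-IFNG dark, 159, 119 and 131 in P815-M light and 80.0, 42.2 and 68.7 in P815-M dark. In P815-M the log2 fold change of Ifitm3 was 1.10 ± 0.49 (SE, unadjusted p = 0.0438 and adjusted p = 1 in the edgeR test), with an adjusted p of 0.0577 in the 10 libraries, and it was called with batch as a term (adjusted p = 0.0296) and after ComBat-seq (adjusted p = 0.0219). The P815-M libraries with the higher Ifitm3 were those with the higher macrophage marker sums, whose part was not tested.

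Rsad2 encodes viperin, which makes a chain-ending nucleotide, and had 20.1, 7.81 and 4.10 CPM in P815-IFNG light, 5.59, 4.69 and 0.781 in P815-IFNG dark, 5.19, 5.75 and 7.60 in P815-M light and 1.95, 1.56 and 7.41 in P815-M dark. In P815-IFNG light lay above dark within each depth class, and in P815-M the third dark library lay among the light ones. Its log2 fold change was 1.58 ± 0.85 (SE, adjusted p = 1 in the edgeR test) in P815-IFNG, with 1.44 in the 10 libraries and 2.11 between the deep ones. Cmpk2 makes the substrate of viperin, is its neighbour on chromosome 12, and had few counts: 24 and 29 in the 2 shallower P815-IFNG light libraries, 8 and 16 in the dark ones, and between 1 and 11 in P815-M. Eif2ak2, which encodes the kinase PKR that halts translation, had 15.3, 26.8 and 32.2 CPM in P815-IFNG light, 17.4, 11.4 and 29.1 in P815-IFNG dark, 13.0, 14.8 and 17.4 in P815-M light and 12.1, 17.2 and 13.2 in P815-M dark. Its groups overlapped in both lines. Samd9l, an inhibitor of translation, had 16.9, 16.6 and 104 CPM in P815-IFNG light, 12.1, 10.1 and 45.2 in P815-IFNG dark, 17.6, 15.3 and 18.8 in P815-M light and 9.37, 6.25 and 21.0 in P815-M dark, and the deep libraries stood above all others. Its log2 fold change in P815-IFNG was 1.03 ± 0.78 (SE) and turned to -0.37 without the deep light library. Isg20, an exonuclease, had between 2.44 and 9.39 CPM in the 10 libraries with all groups overlapping. Over the 7 effectors the median was 0.47 in P815-IFNG (6 positive) and 0.49 in P815-M (5 positive), with 0 called.

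Of the other induced genes, Lgals3bp, a secreted glycoprotein, was the most abundant. It had 133, 69.3 and 24.9 CPM in P815-IFNG light, 105, 101 and 15.2 in P815-IFNG dark, 86.2, 81.9 and 91.7 in P815-M light and 57.4, 32.8 and 40.3 in P815-M dark. P815-M light lay above P815-M dark, with a log2 fold change of 0.99 ± 0.67 (SE) and an adjusted p of 0.0638 in the edgeR fit of the 10 libraries, and in P815-IFNG the groups overlapped. Ifi35 had 43.0, 42.0 and 22.7 CPM in P815-IFNG light, 29.5, 23.8 and 16.7 in P815-IFNG dark, 40.5, 21.1 and 50.5 in P815-M light and 26.2, 25.0 and 37.4 in P815-M dark. Xaf1, which binds the inhibitor of apoptosis XIAP, had 33.8, 22.0 and 24.3 CPM in P815-IFNG light, 27.0, 19.4 and 6.34 in P815-IFNG dark, 19.7, 17.7 and 25.9 in P815-M light and 19.1, 8.33 and 27.2 in P815-M dark. Both overlapped between light and dark in P815-M; in P815-IFNG, Ifi35 separated within each depth class and Xaf1 in the deep pair alone, by a log2 ratio of 1.90.

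Rtp4, which encodes a receptor transporter, had 24.5, 17.1 and 6.23 CPM in P815-IFNG light, 9.31, 7.71 and 1.496 in P815-IFNG dark, 11.4, 11.5 and 8.50 in P815-M light and 5.46, 3.13 and 5.35 in P815-M dark. Its log2 fold change was 1.40 ± 0.67 (SE, adjusted p = 1 in the edgeR test) in P815-IFNG and 1.16 ± 0.69 (SE) in P815-M, and in the 10 libraries it was 1.28 (adjusted p = 0.302) and 1.12 (adjusted p = 0.146). A share of 11.2% of its stretches of 100 bases occurs in another gene. Phf11d, at between 2.34 and 11.3 CPM, and Tor3a, at between 10.3 and 32.6 CPM in the 10 libraries, overlapped between light and dark in both lines. Ifi44 stood lowest of the members per kilobase, with between 0 and 8 counts in the 10 libraries. The medians of these 7 genes were 0.62 in P815-IFNG (7 positive) and 0.34 in P815-M (6 positive), with 0 called.

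Whether the engineered tumors differed from the control tumors under the same light was asked next. Both deep libraries are P815-IFNG tumors, so over 12 libraries a comparison of the lines is in part one of depth classes. In light, 26 of 33 members were higher in P815-IFNG (56.7% of all genes were), with a median log2 fold change of 0.41 against 0.15 over all genes. None was called by edgeR (0.016% of all genes were) or DESeq2 (0.218%), and 2 had an unadjusted p under 0.05 in the edgeR test (5.04% of all genes were higher and 1.75% lower so): Isg15 at 1.48 ± 0.66 (SE) and Ifit1 at 1.47 ± 0.59 (SE), both with an adjusted p of 0.629. Trim25, Isg15, Herc6, Trim30a and Ifit1 had all P815-IFNG libraries above all P815-M ones (9.23% of all genes did), and 0 members had the reverse (7.71%). The median was 0.55 in the 10 libraries, against -0.00096 over all genes. There 9 members had an unadjusted p under 0.05 in the edgeR fit (5.06% of all genes) and 0 were called (0.23%). Without the first P815-IFNG light library the median was 0.08. After ComBat-seq, Cmpk2 was called (1.4% of all genes).

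In dark, 24 members were higher in P815-IFNG (64.2% of all genes were). The median of the members was 0.26 and that of all genes 0.33 in this fit of 12 libraries, an order that turned round in the 10 libraries. None was called by edgeR (0.0106% of all genes were) or DESeq2 (0.202%), and 0 had an unadjusted p under 0.05 in either direction in the edgeR test, where 5.34% of all genes were higher and 1.52% lower. Ifit1 was higher in each P815-IFNG library (10.9% of all genes), and Irf7 was lower in each (10.3%). The median was 0.12 without the first P815-IFNG dark library, 0.48 without the third and 0.41 without the third P815-M dark library. In the 10 libraries the median was 0.46 against 0.05 over all genes, and 1 member was called, Lgals3bp at 1.22 ± 0.26 (SE, adjusted p = 0.0219 in the edgeR fit; 2.19% of all genes were called), as it was with depth class as a batch term (1.54%) and after ComBat-seq (3.05%). At an unadjusted p under 0.05 in that fit of the 10 libraries, 7 members were higher (10.4% of all genes) and Irf7 was lower (9.14%). Lgals3bp had 105 and 101 CPM in the shallower P815-IFNG dark libraries and between 32.8 and 57.4 in P815-M dark. Comparisons of the lines and of light share their libraries and are not independent.

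The genes upstream of the module were read from a list of 40, of which 39 had a row and 28 passed the filter on low counts. The ligands were nearly absent. Over the 9 listed, Ifna1, Ifna2, Ifna4, Ifna5, Ifne, Ifnl2 and Ifnl3 had no count in any of the 12 libraries, which allows up to the floor of 0.931 to 1.56 CPM in the 10 libraries and of 0.0670 to 0.0694 CPM in the deep ones. Ifnb1 had 1 count, in the deep light library, and Ifnk had 1, in the first P815-IFNG light library. The receptor genes were counted in every library, with Ifnar1 at between 25.4 and 49.6 CPM and Ifnar2 at between 49.5 and 86.3 in the 10 libraries, and at between 90.6 and 182 CPM in the deep ones.

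In signalling, Irf9 stood between 17.2 and 31.2 CPM and Stat2 between 21.9 and 72.4 CPM over all libraries. Of the 28 tested genes, 0 were called in any of the 5 comparisons (at most 0.016% of all genes were). At an unadjusted p under 0.05 in the edgeR test, the nucleic acid sensor Zbp1 was higher in light in P815-IFNG, at 1.71 ± 0.67 (SE). In P815-M the RNA sensor Tlr3 was higher, at 2.50 ± 0.79 (SE), on 1 count in each dark library. Of all genes, 0.755% and 2.03% were higher so in the 2 lines, and 0 of the listed genes were lower (1.42% and 0.681% of all genes). Between the lines, at an unadjusted p under 0.05 in the same edgeR test, Tbk1 was higher in P815-IFNG in light, at 0.83 ± 0.37 (SE, adjusted p = 0.629). In dark Ifnar1, Tlr3 and Tbk1 were, at 0.89 ± 0.39, 2.14 ± 0.78 and 0.99 ± 0.37 (SE, adjusted p = 0.604 for each). Of all genes, 5.04% and 5.34% were higher so. In the 10 libraries Tbk1 was at 0.58 in light, and the 3 genes at 0.52, 2.42 and 0.64 in dark.

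The markers of other cell types were read beside these levels. The 6 plasmacytoid dendritic cell markers, of the type known as a source of interferon alpha, summed to between 13.7 and 34.6 CPM with all groups overlapping. The 10 T cell markers summed to between 12.2 and 50.9 CPM, the 5 B cell markers to at most 7.71 and the 7 neutrophil markers to at least 38.4 and at most 62.1 CPM in the 10 libraries, with 207 and 198 CPM in the deep light and dark ones. The neutrophil sums were lower in P815-M light (38.4 to 49.6 CPM) than in P815-M dark (58.9 to 60.9). They rest on between 74 and 154 counts, and between 2 and 5 of the 7 markers had no count in each of these libraries. Fibroblast markers summed to between 3785 and 12406 CPM, endothelial markers to between 20.2 and 121 and skeletal muscle markers to between 91.4 and 617. In P815-IFNG the endothelial sums were lower in light (30.3 to 40.2 CPM) than in dark (42.1 to 121) and the muscle sums were too (117 to 142 against 145 to 522). The part of any of these cells in the results on the members was not tested.

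Members differed in how the deep libraries related to the others of the same tumor line. Over the 33, the mean log2 CPM of the 2 deep libraries minus that of the 4 others in P815-IFNG had a median of -0.99, with 24 lower and 9 higher, against 0.14 over all genes. Cmpk2 was 8.42-fold and Irf7 6.13-fold higher in the shallower libraries, as ratios of mean CPM, and Lgals3bp 5.07-fold, whereas Samd9l went the other way. The exons of 6 members overlap a gene of the other strand: Dhx58, Usp18, Irf7, Oasl1, Eif2ak2 and Ifi35. Their median difference was -1.59, and that of the other 27 was -0.89. The libraries were made with a stranded kit, and the counting tool was run with default settings, which assign reads by strand. Dhx58os, which overlaps Dhx58 by 141 bases, had a mean of 58.6 CPM in the 10 libraries and 0.478 in the deep ones, and Gm11626, which overlaps Ifi35 by 290 bases, had 179 and 3.99. Dhx58os lay higher in light in the 10 libraries in both lines, by a log2 fold change of 1.21 (adjusted p = 0.206 in the edgeR test) and 0.84 (adjusted p = 0.0515). Gm11626 had log2 fold changes of 0.74 (adjusted p = 0.242) and 0.47 (adjusted p = 0.156) in the same edgeR fit. The part of reads from the other strand in the values of the members was not tested.

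**Figure D5:**
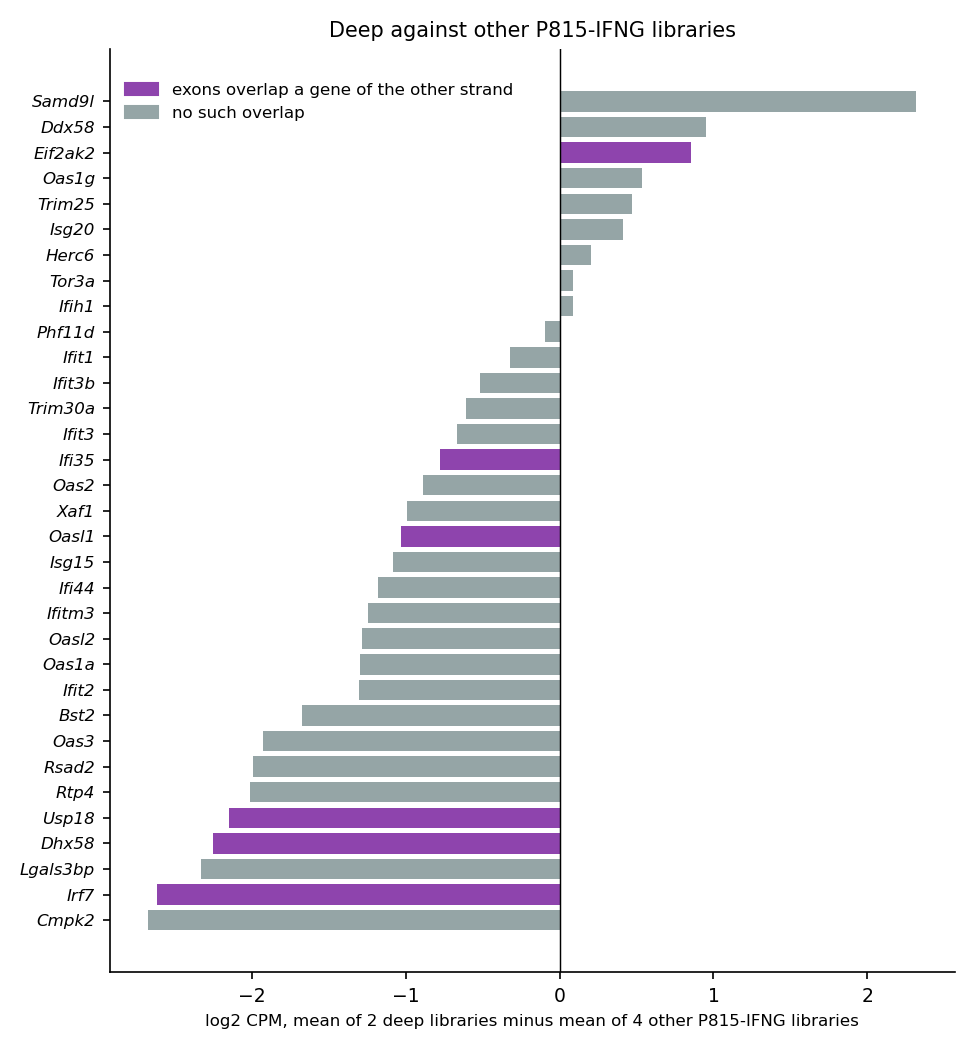
Mean log2 CPM of the 2 deep libraries minus that of the 4 other P815-IFNG libraries for each member; purple bars mark the 6 members whose exons overlap a gene of the other strand. Bars left of 0 (24 of 33) are members lower in the deep libraries, with Cmpk2 and Irf7 at the far end and Samd9l alone past 2 on the right.

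Members with and without an ISRE core in their window were set side by side. In P815-IFNG the median log2 fold change in light against dark was 0.62 for the 14 with a core and 0.90 for the 14 without, and in P815-M the medians were 0.53 and 0.36. In each line and set, between 10 and 13 of the 14 were higher in light. Of the 6 members with light above dark in both lines within each depth class, Ifit1 and Oas3 held a core, Ifit2 and Oasl2 did not in their windows, and Dhx58 and Rtp4 had no window.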

How the data were processed

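RNA was sequenced from 12 P815 tumors, 3 in each of 4 groups, with a stranded mRNA kit. The authors trimmed the reads, aligned them with STAR 2.7.9a to mm10 with the inserted genes added, and deposited raw counts per gene from HTSeq 0.13.5. The tools are named by the submitters' processing notes and methods. HTSeq was run with default parameters per the methods, and its default counts reads by strand.

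From these counts, 13 mitochondrial rows were removed, and the 18804 genes with a total of at least 10 counts were kept. They were fitted with edgeR 4.0.16 (R 4.3.3), by the quasi-likelihood test with TMM scaling and a mean for each group. P-values were adjusted by Benjamini-Hochberg over all genes, and a gene counted as called where that p did not exceed 0.05 and the log2 fold change reached 1 in either direction. There were 5 comparisons: light against dark in each line, the lines under each light condition, and the difference of the light effects. Replicates are separate mice. Same-numbered libraries deviated together in P815-IFNG light and dark (r = 0.58, 0.58 and 0.87 for replicates 1, 2 and 3). Number 3 is the deep library in both groups, so these values cannot tell a pairing from the depth class. The labels state no pairing, and the number was used as a block in an alternative fit only. The 10 shallower libraries were also fitted alone (16944 genes). Alternatives were DESeq2 1.42.0, ComBat-seq (sva 3.50.0), depth as a batch term, other filters and scalings, and each library left out in turn. The fits were tested on simulated counts with known changes. These were drawn from 1 mean profile for all 12 libraries, with the spread of the 10 shallower ones. The different makeup of the deep libraries was not simulated.

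The members and lists were chosen with earlier results of these data known. All members are named. Values in every library are given for the 3 members of each role with the highest mean CPM in the 10 libraries, for members called or separated in both lines, and for Rsad2. Oas3, Rtp4, Isg15 and Samd9l were added after their values were seen. A fold change is printed where it was at least as large as its standard error. Floors and intervals cover counting error only. Exon overlaps and shared stretches of 100 bases were computed on GRCm38.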

Additional observations from a re-analysis of the deposited data

How the results depend on the processing

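Over the 5 comparisons, the number of members called was 0 and was still 0 in 106 of 114 alternatives, including every library left out in turn (range 0 to 0). In P815-IFNG light against dark, 4 members were called after ComBat-seq (0.841% of all genes were): Oas3 at 1.84, Oasl2 at 1.04, Rsad2 at 1.95 and Rtp4 at 1.52. In P815-M light against dark, 2 were called with batch as a term (1.03% of all genes), Oasl2 at 1.18 and Ifitm3 at 1.09, the same 2 with only the libraries compared (1.55%), and 1, Ifitm3 at 1.06, after ComBat-seq (1.38%). Between the lines in light, 1 was called after ComBat-seq (1.4%), Cmpk2 at 2.40. Between the lines in dark, 1 was called in each of 3 alternatives, Lgals3bp at 1.11 with batch as a term (1.54%), 1.08 after ComBat-seq (3.05%) and 1.22 in the 10 libraries (2.19%). The cause of these differences was not tested.

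The log2 fold change of Samd9l reversed in 7 alternatives. In P815-IFNG light against dark it was -0.37 without P815-IFNG light replicate 3. With 1 library left out at a time it reached up to 1.98. Between the lines in light it was -0.039 in the 10 libraries and -0.023 without that library, with up to 1.82 without another. In dark it was -0.30 with batch as a term, -0.32 after ComBat-seq, -0.16 in the 10 libraries and -0.14 without P815-IFNG dark replicate 3. Of the 1372 alternatives for single members, 1350 kept direction and side of the threshold. A further 15 kept direction and passed an adjusted p of 0.05, and the other 7 are those of Samd9l. The 5 medians kept their sign in all 109 alternatives and moved by less than 0.40, the pooled SD of the module level within groups. That SD is larger than the medians between the lines in dark (0.26) and of the difference of the light effects (0.26), so it is a wide bound. With 1 library left out, the median between the lines ran from 0.08 to 0.61 in light and from 0.12 to 0.48 in dark. That of the difference ran from 0.04 to 0.49.

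With the replicate number as a block, 0 members were called in each comparison, and the medians were 0.74, 0.42, 0.38, 0.22 and 0.28 in the order of the comparisons. The block changed no call. In P815-IFNG light against dark all 3 pairs correlated over 0.1 (0.58, 0.58 and 0.87), but number 3 is the deep library in both groups. A pairing and the depth class cannot be told apart there. In the other comparisons of groups at least 1 pair did not correlate over 0.1. With 3 pairs in each, such correlations cannot decide whether the samples were paired. The difference of the light effects needs all 4 groups, so it was not run with only the libraries compared.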
